A study of Mus musculus with 8 samples.

Results

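The genes described here are targets and antagonists of the Wnt pathway, namely Axin2, Nkd1, Sp5, Lgr5, Dkk1, Tcf7, Ctnnb1, Sfrp1, Sfrp2 and Wnt5a. They were taken by gene symbol: every probe set that the platform annotation assigned to 1 of these 10 symbols was used. This gave 24 probe sets for 9 of the 10 genes, out of 34945 probe sets and 18193 genes with 1 symbol on the array. The expression of Tcf7 was not analysed here, because the annotation used listed no probe set with Tcf7 as its only symbol. Expression was measured on Affymetrix genome-wide mouse arrays in mouse embryonic stem cells (mESCs) and in pancreatic islet-like endocrine cells (PILECs), which were derived from the mESCs by differentiation in culture. The 8 arrays form 4 groups of 2: menin-null (Men1-ko) PILECs, wild-type (WT) PILECs, Men1-ko mESCs and WT mESCs. Each array held RNA of a separate culture. Men1-ko cells carried an inactivated Men1 gene, which encodes menin, and were of the line 3.2N, and WT cells were of the line TC-1. All 4 groups share the 129S6/SvEvTac background. Because each genotype was 1 cell line, genotype and line cannot be told apart, and the spread behind each p-value is that between cultures of the same line. The mESCs were grown on irradiated feeder fibroblasts with leukemia inhibitory factor and were then freed of feeders. PILECs were obtained through embryoid bodies, selection and expansion media and a final stage with nicotinamide.

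Wnt proteins are secreted ligands that bind Frizzled receptors together with LRP co-receptors. In the canonical branch this stops the destruction of β-catenin, which enters the nucleus and activates target genes together with TCF/LEF factors. Several targets are themselves inhibitors, so the pathway limits its own activity, and secreted antagonists such as the Sfrp and Dkk proteins act outside the cell on the ligands or on the co-receptors. Wnt signals help to keep mESCs self-renewing, and they take part in the patterning of mesoderm, endoderm and neural tissue and in pancreas development.

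The stretch around the transcription start was looked up for all members and is printed here for Sp5, Dkk1, Axin2 and Sfrp2. Sp5 and Sfrp2 were lower in Men1-ko PILECs, whereas Dkk1 and Axin2 went in opposite directions during differentiation. The sequences are those of RefSeq on build GRCm38.p6 and run from 250 bases before to 50 bases after the start, and 7 of the 10 members were matched. Capitals mark the core motif of TCF/LEF factors, searched as CTTTGAT or CTTTGAA on the given strand and as ATCAAAG or TTCAAAG for the opposite strand, and since the forms differ in 1 letter a position can match only 1 of them on a strand. Sp5 lies at chr2:70474673-70474972 (+), Dkk1 at chr19:30549447-30549746 (-), Axin2 at chr11:108920099-108920398 (+) and Sfrp2 at chr3:83766071-83766370 (+).
Sp5: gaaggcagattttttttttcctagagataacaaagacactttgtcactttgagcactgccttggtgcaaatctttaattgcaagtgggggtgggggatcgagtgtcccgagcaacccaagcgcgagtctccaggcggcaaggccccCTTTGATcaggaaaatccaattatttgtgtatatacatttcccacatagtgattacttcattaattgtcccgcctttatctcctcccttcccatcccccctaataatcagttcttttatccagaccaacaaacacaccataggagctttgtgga
Dkk1: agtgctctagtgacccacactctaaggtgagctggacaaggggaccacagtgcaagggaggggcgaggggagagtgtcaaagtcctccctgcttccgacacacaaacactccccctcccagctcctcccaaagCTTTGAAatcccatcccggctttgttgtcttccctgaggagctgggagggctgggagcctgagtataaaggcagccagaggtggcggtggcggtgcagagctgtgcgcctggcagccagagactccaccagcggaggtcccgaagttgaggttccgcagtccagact
Axin2: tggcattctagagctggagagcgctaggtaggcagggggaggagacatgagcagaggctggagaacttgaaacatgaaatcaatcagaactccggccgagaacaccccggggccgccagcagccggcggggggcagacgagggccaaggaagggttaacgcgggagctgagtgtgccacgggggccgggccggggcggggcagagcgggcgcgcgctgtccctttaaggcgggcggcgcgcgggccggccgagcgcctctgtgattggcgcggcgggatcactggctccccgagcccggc
Sfrp2: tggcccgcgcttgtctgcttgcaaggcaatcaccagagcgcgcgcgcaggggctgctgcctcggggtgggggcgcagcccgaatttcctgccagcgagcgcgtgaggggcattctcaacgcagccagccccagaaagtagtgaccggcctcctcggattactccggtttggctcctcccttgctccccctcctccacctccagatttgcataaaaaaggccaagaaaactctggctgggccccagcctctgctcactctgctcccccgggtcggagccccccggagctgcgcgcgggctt
Sp5 and Dkk1 had 1 match each, which begins 104 and 117 bases before the start, and both were on the given strand. The windows of Axin2 and Sfrp2 held no match, and neither did those of Nkd1, Tcf7 and Ctnnb1, which are not printed. The motif was thus held by 2 of the 7 matched members, which is 2 of their 9 promoters. Other forms of the motif were not searched. Of all 32851 promoters of the same length, 8.65% held the motif, and a match is a description of the sequence only.

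The values are the deposited log2 signals, 1 per probe set and array. Where a gene had several probe sets, the brightest one on average stood for it, and a gene was called where limma, fitted to all genes and all 4 groups, gave a Benjamini-Hochberg adjusted p under 0.05. Differences are on the log2 scale, so 1 log2 unit is a 2-fold change, and a signal under 7 is treated here as dim, because no detection calls were analysed. By that mark 6 of the 9 genes had a group mean of at least 7 somewhere on the chosen probe set. Lgr5 and Dkk1 were dim in every group on all their probe sets, and Nkd1 was dim on its chosen one, 1429507_at, while 2 of its 4 probe sets reached 7 (means of 7.02 on 1417278_a_at and 7.09 on 1429506_at in WT PILECs). Men1 itself (1416347_at) read 7.95 and 8.02 in Men1-ko PILECs against 10.06 and 9.92 in WT PILECs, and 7.77 and 7.82 in Men1-ko mESCs against 9.90 and 9.97 in WT mESCs. The other Men1 probe set 1416348_at separated the genotypes too, but 1443826_x_at did not, and where the inactivation lies relative to each probe set was not analysed here. The arrays of a group correlated at 0.9926 to 0.9974, with the Men1-ko mESCs the least alike. Islet markers were mixed in the cultures called PILECs: Ins2 averaged 7.37 and 7.23 in Men1-ko and WT PILECs against 7.19 and 6.82 in Men1-ko and WT mESCs, Sst averaged 8.10 and 9.06 against 6.66 and 6.64, Chga averaged 9.63 and 9.25 against 8.03 and 7.87, Neurod1 averaged 8.68 and 8.95 against 8.84 and 9.40, and Gcg, Iapp and Pdx1 were dim in all groups. Of these 7 markers 4 were called higher in PILECs in the Men1-ko line, namely Sst, Chga and the dim Gcg and Iapp. The 1 called lower in that line was Pdx1, which was also dim. In the WT line 2 were called higher, Sst and Chga, and 1 lower, Neurod1. The mean over 8 fibroblast markers was 10.58 to 10.99 on the Men1-ko PILEC arrays and 10.79 to 10.96 on the WT PILEC arrays, so that the differentiated cultures carried transcripts of several cell types.

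In differentiated cells, loss of menin went with lower expression of the antagonist Sfrp2, the ligand Wnt5a and the target gene Sp5. The call of Sfrp2 held in all other settings, whereas Wnt5a was near the threshold (limma adjusted p = 0.0466) and Sp5 was dim in PILECs. Of the 9 genes 3 were lower and 0 higher in Men1-ko PILECs than in WT PILECs, where 6.68% of all genes were called, 4.42% lower and 2.26% higher. The median difference of the 9 genes was -0.21 against -0.0054 for all genes. The arrays of the 2 genotypes did not overlap for 6 genes that were lower and 1 that was higher in Men1-ko PILECs, beside a background of 30% lower and 24.7% higher. The values of every gene by array are plotted next.

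**Figure D1:**
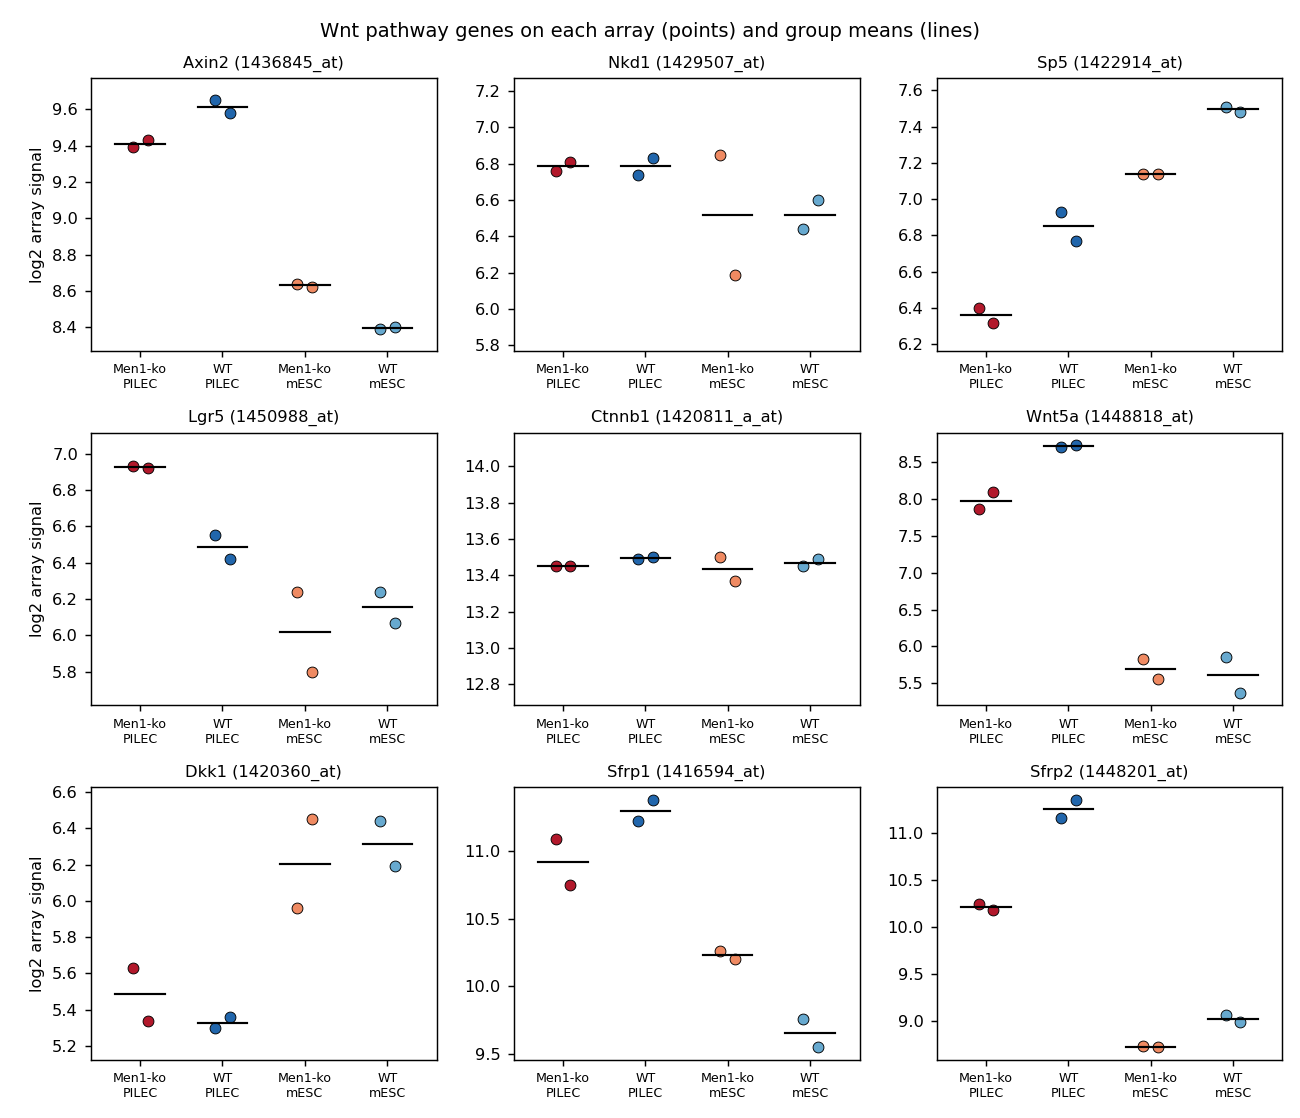
Log2 array signal of the 9 Wnt pathway genes, each by its brightest probe set, in Men1-ko PILECs, WT PILECs, Men1-ko mESCs and WT mESCs (points: single arrays, 2 per group; lines: group means; the axes do not start at 0 and differ between panels). Sfrp2 sits at 10.24 and 10.18 in Men1-ko PILECs and at 11.16 and 11.35 in WT PILECs, and Ctnnb1 sits between 13.37 and 13.50 on all 8 arrays.

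Among the secreted antagonists, Sfrp2 (1448201_at) had the largest difference of the 9 genes. Sfrp2 belongs to the secreted Frizzled-related proteins, which share the Wnt-binding domain of the receptors and bind the ligands outside the cell. Its signal was 10.24 and 10.18 in Men1-ko PILECs and 11.16 and 11.35 in WT PILECs. The pairs were thus well apart, with a difference of -1.05 (SE 0.0917, 95% interval -1.26 to -0.84, 2.07-fold lower, limma adjusted p = 0.00182). Its relative Sfrp1 (1416594_at) read 11.09 and 10.75 in Men1-ko PILECs and 11.22 and 11.38 in WT PILECs. These pairs did not overlap either, but the difference of -0.38 (SE 0.132) did not pass the test (limma adjusted p = 0.138). Dkk1, which binds the LRP co-receptors, was dim (1420360_at), at 5.63 and 5.34 in Men1-ko PILECs and 5.30 and 5.36 in WT PILECs. Its pairs overlapped, and the 95% interval of the difference ran from -0.25 to 0.56.

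The ligand Wnt5a is best known for signals that bypass β-catenin, such as those that orient cells in a tissue. Its brightest probe set, 1448818_at, read 7.87 and 8.09 in Men1-ko PILECs and 8.70 and 8.73 in WT PILECs. Both Men1-ko arrays lay below both WT arrays, with a difference of -0.73 (SE 0.171, 1.66-fold lower, limma adjusted p = 0.0466). The other Wnt5a probe sets had the same order, with differences of -0.52 (1436791_at), -0.43 (1437673_at) and -0.45 (1456976_at), none of which was called. Where every probe set was tested on its own, 1448818_at lost its call as well (limma adjusted p = 0.0586). By probe set, 2 of the 24 were called in this comparison, those of Sfrp2 and Sp5, against 3.87% of all probe sets, and 1 to 5 were called without any single array.

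Sp5, a zinc finger factor that is a direct target of β-catenin and damps the activation of other targets, has 1 probe set (1422914_at). It read 6.40 and 6.32 in Men1-ko PILECs and 6.93 and 6.77 in WT PILECs. The Men1-ko pair was the lower, with a difference of -0.49 (SE 0.0865, limma adjusted p = 0.0204), although all 4 of these signals were dim. Axin2 is the target most often used to read out the canonical branch and encodes a scaffold of the complex that destroys β-catenin. Its signal (1436845_at) was 9.39 and 9.43 in Men1-ko PILECs and 9.65 and 9.58 in WT PILECs. The pairs were apart, but the difference of -0.21 (SE 0.0760) did not pass the test (limma adjusted p = 0.145).

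Lgr5, a receptor for R-spondins and a stem cell marker in several epithelia, was the 1 gene whose arrays were higher in Men1-ko PILECs. Its brighter probe set (1450988_at) read 6.93 and 6.92 in Men1-ko PILECs and 6.55 and 6.42 in WT PILECs. The difference of 0.44 (SE 0.145) was not called (limma adjusted p = 0.123), the signal was dim, and the pairs overlapped on the second probe set, 1444519_at. Nkd1 encodes an inhibitor that binds Dishevelled. It read 6.76 and 6.81 in Men1-ko PILECs and 6.74 and 6.83 in WT PILECs by 1429507_at. These pairs overlapped, whereas 1417278_a_at and 1429506_at of the same gene were lower on both Men1-ko arrays (-0.28 and -0.22, neither called). Ctnnb1, which encodes β-catenin and is regulated mainly through protein stability, read 13.45 and 13.45 in Men1-ko PILECs and 13.49 and 13.50 in WT PILECs. The 95% interval of its difference ran from -0.23 to 0.14.

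The call of Sfrp2 was kept without any single array (limma adjusted p = 0.00175 to 0.0210, difference -1.15 to -0.95). Sp5 was no longer called without any 1 of the 4 PILEC arrays or of the WT mESC arrays (limma adjusted p = 0.0506 to 0.135), and Wnt5a was not called without any 1 of the 4 PILEC arrays (limma adjusted p = 0.0935 to 0.218), so that Sfrp2 was then the 1 gene called. Marker lists of other cell types differed between the same cultures. The mean over 6 striated muscle markers was 7.60 to 8.07 on the Men1-ko PILEC arrays and 9.46 to 9.76 on the WT PILEC arrays, and 5 of the 6 were lower in Men1-ko PILECs. For 6 parietal endoderm markers it was 11.12 to 11.54 in Men1-ko PILECs and 10.07 to 10.19 in WT PILECs, with 4 of the 6 higher in Men1-ko PILECs. For 8 pluripotency markers it was 8.65 to 8.70 in Men1-ko PILECs and 9.18 to 9.37 in WT PILECs, with 5 of the 8 lower in Men1-ko PILECs. Of 8 fibroblast markers 1 was higher (Thy1) and 2 were lower (Col1a2 and Lum), and of 6 neural markers 0 were called. Of the muscle and fibroblast markers, Myod1 (6.51) and Thy1 (6.29) were the ones dim in WT PILECs. The parietal endoderm marker Thbd was dim in every group. Its pairs overlapped, at 6.67 and 6.30 in Men1-ko PILECs and 6.36 and 6.40 in WT PILECs. The part of these cell types in the Wnt gene differences was not tested, and in whole cultures fewer cells of a type and less RNA per cell cannot be told apart.

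In undifferentiated mESCs none of the 9 genes was called between the genotypes with 1 probe set per gene. The count was 0 of 9 by limma (4 had an unadjusted p under 0.05), while 3.64% of all genes were called, 1.29% higher and 2.36% lower in Men1-ko mESCs. The median difference of the 9 genes was -0.04 against 0.0073 for all genes. The nearest to the threshold was Sfrp1, and 3 of its 4 further probe sets did pass when each was tested on its own.

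Sfrp1 (1416594_at) read 10.26 and 10.20 in Men1-ko mESCs and 9.76 and 9.55 in WT mESCs. Both Men1-ko arrays were higher, the opposite order to that in PILECs, with a difference of 0.57 (SE 0.132, limma adjusted p = 0.0623), which passed without either Men1-ko PILEC array (adjusted p = 0.0470). Tested by probe set, Sfrp1 was higher in Men1-ko mESCs on 1448395_at (0.59, limma adjusted p = 0.0367), 1428136_at (0.66, adjusted p = 0.0266) and 1460187_at (0.87, adjusted p = 0.0106). The fifth, 1438620_x_at, overlapped between the genotypes and is of a type that can bind other transcripts. These probe sets read the same RNA, so they do not count as separate evidence, and without either WT mESC array none of the 3 was called (limma adjusted p = 0.0801 to 0.239). By probe set 4 of the 24 were called, against 2.2% of all probe sets (2 without the first Men1-ko mESC array, 1 without either WT PILEC array and 0 without either WT mESC array). With the replicate block 1 of the 24 was called, 1460187_at, and without moderated variances 0 were. The fourth was 1437673_at of Wnt5a, at 4.36 and 4.20 in Men1-ko mESCs and 4.90 and 4.90 in WT mESCs. It was lower in Men1-ko mESCs (-0.62, limma adjusted p = 0.0303) but dim in every group, and the brightest Wnt5a probe set differed by 0.08 with overlapping pairs (5.83 and 5.56 in Men1-ko mESCs, 5.86 and 5.37 in WT mESCs).

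**Figure D2:**
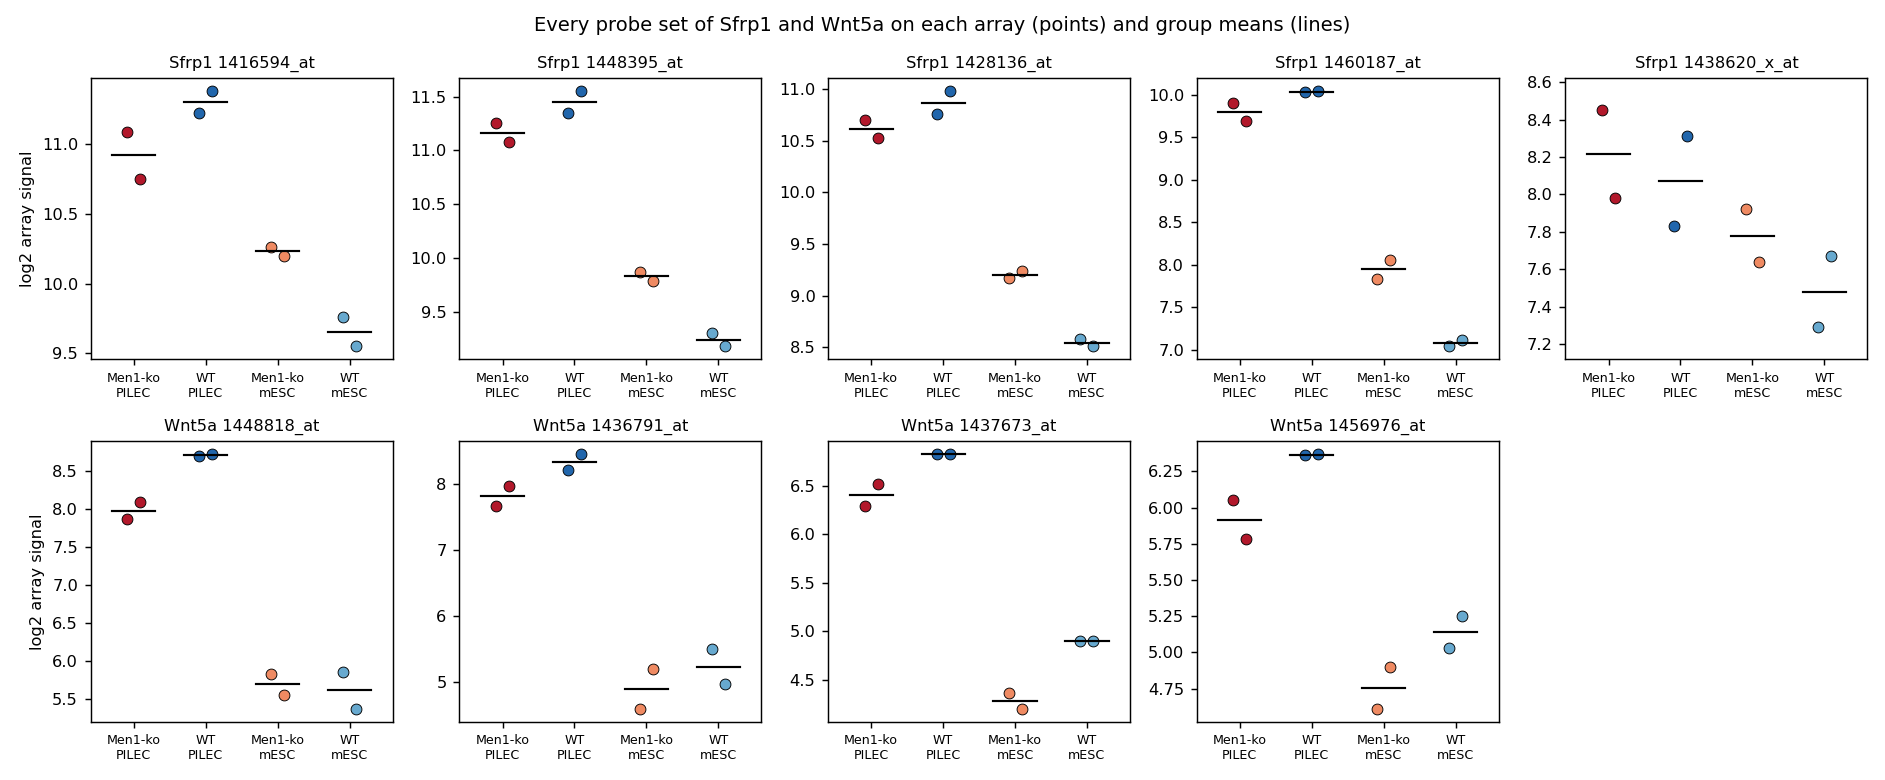
Log2 array signal of the 5 Sfrp1 probe sets (top) and the 4 Wnt5a probe sets (bottom) in Men1-ko PILECs, WT PILECs, Men1-ko mESCs and WT mESCs (points: single arrays; lines: group means; axes differ between panels and do not start at 0). On 4 of the 5 Sfrp1 probe sets Men1-ko lies below WT in PILECs and above WT in mESCs, whereas on 1438620_x_at the pairs overlap, and all 4 Wnt5a probe sets are higher in PILECs than in mESCs.

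Marker lists of other cell types were set beside these values. The mean over the 6 parietal endoderm markers was 9.23 to 9.27 on the Men1-ko mESC arrays and 9.67 to 9.70 on the WT mESC arrays (median difference -0.52). Of the 6, 5 had an unadjusted p under 0.05 and 1, Sparc, was called lower by limma (-0.67, adjusted p = 0.0422). Of 6 neural markers Tubb3 was higher (0.61) and Nes lower (-0.50) in Men1-ko mESCs, and of 8 fibroblast markers Thy1 was higher (0.39), while 7 of the 8 were dim in both genotypes. None of the pluripotency, islet or muscle markers was called by limma, although 1 in each list had an unadjusted p under 0.05. The part of these cell types in the differences between the mESC lines was not tested.

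Sp5 read 7.14 and 7.14 in Men1-ko mESCs and 7.51 and 7.48 in WT mESCs. The order was that seen in PILECs, and the difference of -0.36 (SE 0.0865) did not pass the test (limma adjusted p = 0.0719). Sfrp2 was also in the same order as in PILECs, at 8.73 and 8.72 in Men1-ko mESCs and 9.06 and 8.99 in WT mESCs, a difference of -0.30 (limma adjusted p = 0.128). Axin2, at 8.64 and 8.62 in Men1-ko mESCs and 8.39 and 8.40 in WT mESCs, was in the order opposite to that in PILECs (0.24, SE 0.0760, limma adjusted p = 0.146). The arrays of the genotypes were thus apart for 4 genes, 2 in each direction, against 24.1% of all genes apart and higher and 24.9% apart and lower. Lgr5 (6.24 and 5.80 in Men1-ko mESCs, 6.24 and 6.07 in WT mESCs), Dkk1 (5.96 and 6.45 in Men1-ko mESCs, 6.44 and 6.19 in WT mESCs) and Nkd1 (6.85 and 6.19 in Men1-ko mESCs, 6.44 and 6.60 in WT mESCs) overlapped between the genotypes. Ctnnb1 read 13.50 and 13.37 in Men1-ko mESCs and 13.45 and 13.49 in WT mESCs, and the 95% interval of its difference was -0.23 to 0.15.

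**Figure D3:**
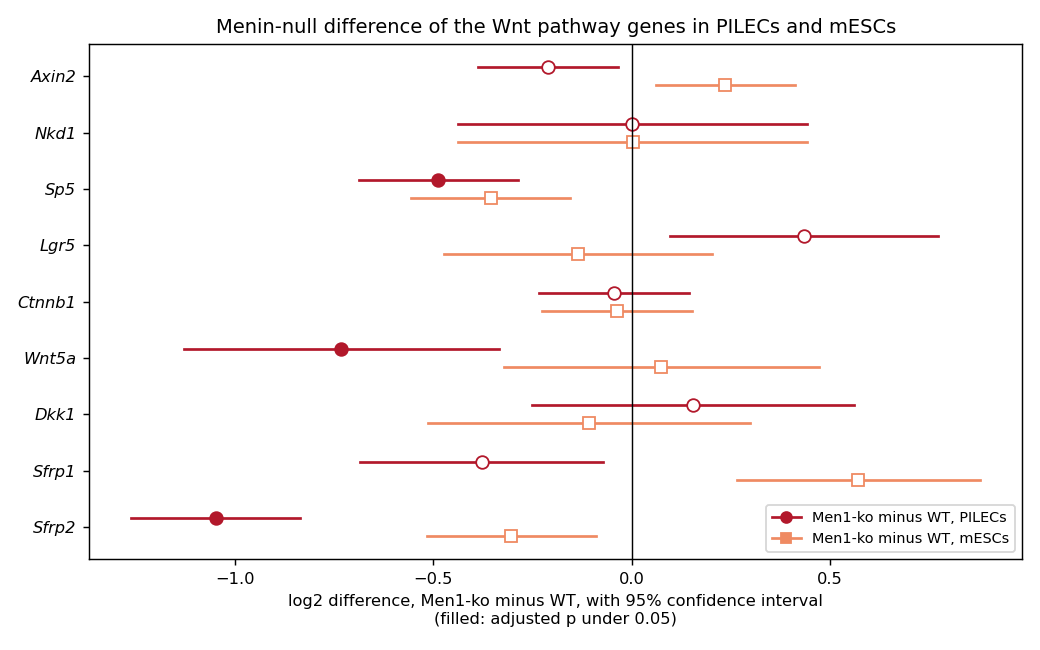
Log2 difference between Men1-ko and WT cells for the 9 Wnt pathway genes in PILECs (circles) and mESCs (squares), each by its brightest probe set, with 95% confidence intervals of the limma fit; filled symbols have an adjusted p under 0.05. Sfrp2 (-1.05), Wnt5a (-0.73) and Sp5 (-0.49) are filled in PILECs, none is filled in mESCs, and Sfrp1 lies on opposite sides of 0 in PILECs (-0.38) and in mESCs (0.57).

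Whether the menin-null difference itself differed between PILECs and mESCs was tested as an interaction. It was called for 2 of the 9 genes, against 3.06% of all genes (1.5% higher, 1.57% lower), and both were Frizzled-related antagonists. For Sfrp1 the difference in PILECs minus that in mESCs was -0.95 (SE 0.187, limma adjusted p = 0.0421), and for Sfrp2 it was -0.75 (SE 0.130, limma adjusted p = 0.0287). For Sfrp1 the 2 differences had opposite signs, while for Sfrp2 both were negative and that in PILECs was the larger. By probe set the interaction was called for Sfrp2 and for 1448395_at, 1428136_at and 1460187_at of Sfrp1 (-0.87, -0.91 and -1.11), which is 4 of 24 against 1.6% of all probe sets, and 1 of 24 with the replicate block. For Wnt5a (-0.81, limma adjusted p = 0.128), Axin2 (-0.45, adjusted p = 0.0744), Lgr5 (0.57, adjusted p = 0.187) and Sp5 (-0.13, adjusted p = 0.619) the interaction was not called, so a PILEC-specific difference was not shown for Wnt5a or Sp5. Neither interaction was called without either WT mESC array, without either WT PILEC array or without the second Men1-ko PILEC array (limma adjusted p = 0.0702 to 0.172). That of Sfrp1 was also lost without the first Men1-ko mESC array (adjusted p = 0.0645), and that of Sfrp2 without the first Men1-ko PILEC array (adjusted p = 0.0696).

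Differentiation changed most of these genes in both lines. In the Men1-ko line 5 of the 9 were higher in PILECs than in mESCs (Wnt5a, Sfrp2, Lgr5, Axin2 and Sfrp1) and 2 were lower (Sp5 and Dkk1), where 28.9% of all genes were called higher and 36.1% lower. In the WT line 6 of these 7 were called in the same direction, all but Lgr5, which made 4 higher and 2 lower, where 27.8% of all genes were called higher and 35.3% lower. With 65% and 63.1% of all genes called in the Men1-ko and WT lines, a call by itself says little about the members. The median difference of the 9 genes was 0.70 in the Men1-ko line and 0.33 in the WT line, against -0.07 and -0.08 for all genes.

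Wnt5a showed the largest difference of the 9 genes in both lines. It averaged 7.98 in Men1-ko PILECs and 5.69 in Men1-ko mESCs, a difference of 2.29 (SE 0.171, limma adjusted p = 6.42e-06), and 8.71 in WT PILECs and 5.62 in WT mESCs, a difference of 3.10 (adjusted p = 1.25e-06). The signal was thus dim before and clear after differentiation, and all 4 Wnt5a probe sets were called higher in both lines. Sfrp2 averaged 10.21 in Men1-ko PILECs and 8.72 in Men1-ko mESCs (1.48, 2.80-fold, adjusted p = 2.10e-06), and 11.26 in WT PILECs and 9.02 in WT mESCs (2.23, 4.69-fold, adjusted p = 2.82e-07). Sfrp1 averaged 10.92 in Men1-ko PILECs and 10.23 in Men1-ko mESCs (0.70, 1.62-fold, adjusted p = 0.00184), and 11.30 in WT PILECs and 9.65 in WT mESCs (1.65, 3.13-fold, adjusted p = 1.06e-05). Both antagonists were already well above the dim range in mESCs. The size for Sfrp1 depended on the probe set, with 0.43 to 1.85 in the Men1-ko line and 0.59 to 2.96 in the WT line.

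The targets did not move together. Axin2 averaged 9.41 in Men1-ko PILECs and 8.63 in Men1-ko mESCs (0.78, 1.71-fold, limma adjusted p = 3.35e-05), and 9.62 in WT PILECs and 8.39 in WT mESCs (1.22, 2.34-fold, adjusted p = 2.35e-06). Sp5 was lower after differentiation, with 6.36 in Men1-ko PILECs and 7.14 in Men1-ko mESCs (-0.78, adjusted p = 7.35e-05) and 6.85 in WT PILECs and 7.50 in WT mESCs (-0.65, adjusted p = 0.000239). Lgr5 averaged 6.92 in Men1-ko PILECs and 6.02 in Men1-ko mESCs (0.90, adjusted p = 0.000697), whereas 6.49 in WT PILECs and 6.15 in WT mESCs did not pass the test (0.33, adjusted p = 0.0795). The second Lgr5 probe set did not follow in either line, with differences of -0.03 in the Men1-ko line and -0.09 in the WT line.

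Dkk1 averaged 5.49 in Men1-ko PILECs and 6.20 in Men1-ko mESCs (-0.72, limma adjusted p = 0.00686), and 5.33 in WT PILECs and 6.31 in WT mESCs (-0.98, adjusted p = 0.00128). All of these signals were dim, and the second Dkk1 probe set was not called. For Nkd1 the brightest probe set, 1429507_at, was not called (0.27 in both lines, adjusted p = 0.254 in the Men1-ko line and 0.262 in the WT line). Its mean over all arrays, 6.65, was the same to this precision as that of 1417278_a_at. Tested by probe set, 1429506_at and 1440446_at were called higher in PILECs in both lines (1.21 and 0.53 in the Men1-ko line, 1.60 and 0.66 in the WT line) and 1417278_a_at in the WT line (0.81), so the probe sets of Nkd1 disagreed. Ctnnb1 did not pass the test in either line, with 95% intervals of -0.17 to 0.21 in the Men1-ko line and -0.16 to 0.21 in the WT line, and its other probe sets were not called either. By probe set 15 of 24 were called in the Men1-ko line and 17 of 24 in the WT line, against 62.7% and 60.5% of all probe sets.

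The study's own threshold asked for at least a 2-fold change with an unadjusted p under 0.005. By it 1 of the 9 genes, Sfrp2, was lower in Men1-ko PILECs (background 0.83%) and 0 differed between the genotypes in mESCs (0.423%) or in the interaction (1.36%), by limma's p without adjustment. For differentiation it took in Wnt5a and Sfrp2 in the Men1-ko line (31.6% of all genes) and Wnt5a, Sfrp2, Sfrp1 and Axin2 in the WT line (30.4%).

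Among the other genes of the pathway, 106 of 108 listed ones were measured, and 26 of these were dim in every group. In Men1-ko PILECs 8 of the 106 were lower and 0 higher than in WT PILECs, which is 7.55% against a background of 6.68%. The median difference was -0.09. The calls fell in 4 of the 8 role lists, and the R-spondin axis held 3 of them, of which Znrf3 rests on the choice of probe set. The count was 1 without moderated variances and 13 with an intensity trend in the variance model.

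R-spondins are secreted proteins that strengthen Wnt signals by removing the ubiquitin ligases Znrf3 and Rnf43, which clear Frizzled receptors. Rspo3 read 6.24 and 6.45 in Men1-ko PILECs and 8.07 and 8.07 in WT PILECs, a difference of -1.73 (SE 0.176, limma adjusted p = 0.00306). Rspo1 read 5.77 and 5.75 in Men1-ko PILECs and 7.52 and 7.21 in WT PILECs, a difference of -1.61 (SE 0.163, adjusted p = 0.00306). In both cases the Men1-ko signal was dim and the WT signal was not, so no fold is given. Znrf3 read 7.29 and 7.30 in Men1-ko PILECs and 7.79 and 7.95 in WT PILECs (-0.57, adjusted p = 0.0361), but with its most variable probe set (1437646_at) the difference was 0.19 and was not called. The remaining 5 of 8 members of this list were not called.

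Of the 20 genes in the ligand list (the carrier Wls and the enzyme Porcn are counted with the ligands), 2 were lower in Men1-ko PILECs, Wnt8b (6.04 and 6.48 in Men1-ko PILECs, 7.69 and 7.53 in WT PILECs, -1.35, limma adjusted p = 0.00492) and Wnt9a (-0.35, adjusted p = 0.0477). Of 13 further antagonists, 2 were lower, Dkk2, a relative of Dkk1 (7.47 and 6.89 in Men1-ko PILECs, 8.24 and 8.77 in WT PILECs, -1.33, adjusted p = 0.0248), and Wif1, a Wnt-binding protein that was dim in every group (-0.45, adjusted p = 0.0194). Of 13 nuclear partners of β-catenin 1 was lower, Tcf7l2, a TCF factor that carries β-catenin to its targets. It read 8.61 and 8.45 in Men1-ko PILECs and 9.40 and 9.26 in WT PILECs (-0.81, adjusted p = 0.0113). None of 12 receptors and co-receptors, 15 relay proteins, 13 feedback and target genes or 12 polarity genes was called by limma, although 5, 3, 2 and 4 of them had an unadjusted p under 0.05. Rspo1 and Rspo3 stayed called without any single array, whereas the count over the 106 genes was 5 without either WT mESC array or the first Men1-ko PILEC array, 3 without the second Men1-ko PILEC array or the second WT PILEC array, and 2 without the first WT PILEC array.

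**Figure D4:**
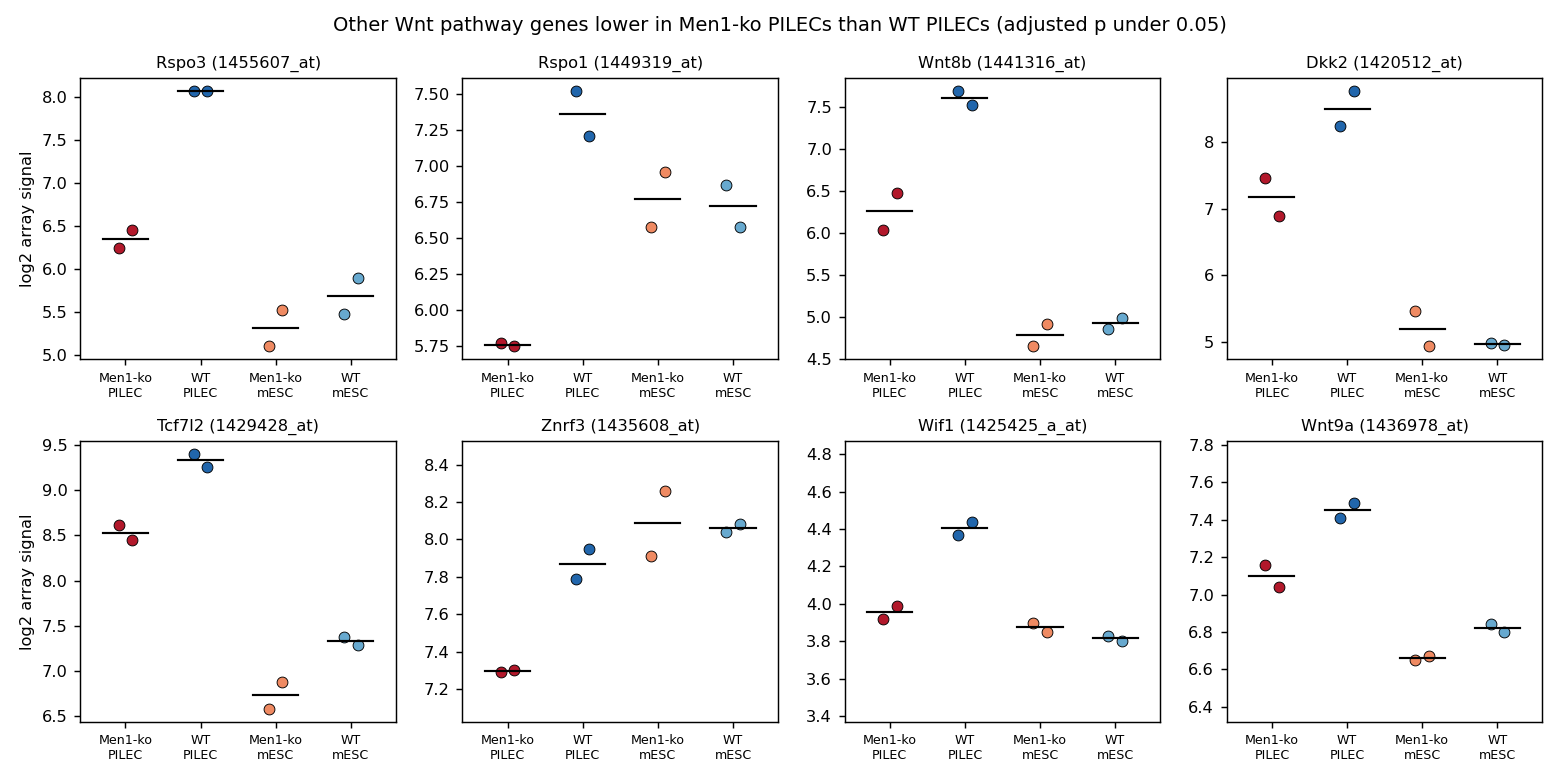
Log2 array signal of the 8 other Wnt pathway genes that were lower in Men1-ko PILECs than in WT PILECs, shown in Men1-ko PILECs, WT PILECs, Men1-ko mESCs and WT mESCs (points: single arrays; lines: group means; axes differ between panels and do not start at 0). In WT cells all of these genes but Znrf3 are higher on both PILEC arrays than on both mESC arrays. Rspo1 in Men1-ko PILECs (5.77 and 5.75) lies below both mESC groups.

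In mESCs 9 of the 106 genes were called between the genotypes, 3 higher and 6 lower, which is 8.49% against a background of 3.64%. The median difference was 0.02. The nuclear partners Lef1 and Tcf7l2 were lower. Lef1, a partner of β-catenin like Tcf7l2, read 7.43 and 7.49 in Men1-ko mESCs and 8.37 and 8.48 in WT mESCs (-0.96, limma adjusted p = 0.00221), and Tcf7l2 read 6.58 and 6.88 in Men1-ko mESCs and 7.38 and 7.29 in WT mESCs (-0.60, adjusted p = 0.0395). Tcf7l2 was thus the 1 gene of the 106 that was called in both cell types. Also lower were Wls (-0.90), which carries Wnt proteins to the cell surface, the ligand Wnt4 (-0.66), the polarity gene Prickle1 (-1.12) and the receptor Fzd1 (-0.44, dim). Higher were Apc (0.64), a scaffold of the destruction complex, Csnk1e (0.74), a casein kinase of the relay, and the target Cdx1 (0.70, dim). No R-spondin axis member or antagonist of the lists was called in mESCs, where 0 of 8 and 1 of 13 had an unadjusted p under 0.05. Lef1 alone of the 106 was called without either WT mESC array, while the count was 3 without either WT PILEC array, 4 without the first Men1-ko mESC array and 16 without the second. It was 0 where only the mESC arrays entered the fit, which then called 12 of all 18193 genes, and 1 without moderated variances. With the most variable probe set per gene the count was 6, with 3 higher and 3 lower. The marker differences given above for the mESCs stand beside these calls too.

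The menin-null difference changed between the cell types for 7 of the 106 genes, against 3.06% of all genes. It was lower in PILECs than in mESCs for Rspo1 (-1.65, limma adjusted p = 0.0165), Rspo3 (-1.35, adjusted p = 0.0348), Wnt8b (-1.21, adjusted p = 0.0344), Csnk1e (-0.70) and Cdx1 (-0.79), and higher for Lef1 (0.79, adjusted p = 0.0174) and Wnt4 (0.88). The count was 0 without either WT PILEC array or the second WT mESC array, 1 without the first WT mESC array or either Men1-ko PILEC array, and 14 without the second Men1-ko mESC array. It was 0 without moderated variances and 12 with an intensity trend. With the most variable probe set per gene it was 7, with 0 higher and 7 lower, so the higher calls of Lef1 and Wnt4 rest on the choice of probe set.

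During differentiation 38 of the 106 genes were higher and 25 lower in the Men1-ko line, and 43 were higher and 23 lower in the WT line, with a median of 0.08 in both. This is 59.4% of the 106 in the Men1-ko line and 62.3% in the WT line, no more than the 65% and 63.1% of all genes, so the counts do not set the pathway apart. With each array centred on its median the split in the Men1-ko line was 36 higher and 36 lower. Differences are given here for the Men1-ko line and then for the WT line. Among the receptors Fzd5 was lower in PILECs than in mESCs (-3.84 and -4.04), whereas Fzd1 (3.43 and 3.14), Fzd3 (2.69 and 3.13) and Fzd2 (2.12 and 2.03) were higher. Wls was higher by 4.03 and 3.55. Among the antagonists Dkk2 (1.98 and 3.54), Apcdd1 (2.56 and 3.07) and Frzb (1.75 and 2.51) were higher, and Notum, an enzyme that inactivates Wnt proteins, was lower (-2.58 and -2.01). Among targets Sox9 (3.01 and 3.78) and Sp8 (2.46 and 2.21) were higher, and Tbx3 (-3.66 and -3.47) and Myc (-2.16 and -2.20) were lower. Of 12 polarity genes 7 were higher and 3 lower in the Men1-ko line, and 6 were higher and 2 lower in the WT line. The fibroblast, neural and muscle marker lists had median differences of 4.83, 2.11 and 1.34 in the Men1-ko line and 4.98, 2.42 and 3.47 in the WT line. The parietal endoderm list had medians of 1.85 in the Men1-ko line and 1.11 in the WT line, with all 6 markers called higher in the Men1-ko line and 4 higher and 2 lower in the WT line. All 8 pluripotency markers were lower in PILECs in both lines, at medians of -4.99 in the Men1-ko line and -3.96 in the WT line. The part of these cell types in the Wnt gene differences was not tested.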

How the data were processed

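The authors deposited 1 log2 value per probe set and array (3.255 to 15.16). RMA and Partek stand in the submitters' processing notes, while the methods name Microarray Analysis Suite 5.0. Which of them made the values was not settled, and versions are not given in the sources used here. The number of arrays, not a depth, limits the precision. Of 45101 probe sets, 64 controls, 9160 with no symbol and 932 with several were left out. The remaining 34945, of which 34741 matched a gene of GRCm38.p6 by Entrez identifier, gave 18193 genes, 9010 with more than 1 probe set. Means of the 4 groups were fitted with limma 3.58.1 in R 4.3.3 (package data.table, version 1.17.8) on all 8 arrays, with eBayes variances (4 residual and 3.72 prior degrees of freedom, 4.06 by probe set) and Benjamini-Hochberg adjustment over all genes or probe sets. An exact permutation test of 2 arrays against 2 cannot go below p = 0.333, so none was used. The script was tested on simulated data. Plots and sequence searches used Python 3.11.15, pandas 2.3.3 and matplotlib 3.10.9.

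Named genes were all members, Men1 and, per role list and comparison, up to 4 called genes with the largest differences. Members and lists were chosen with earlier results of these data known. Of 108 listed pathway genes, Kremen2 and T were not matched, nor was the marker Ins1. Replicate numbers were not used as a block, because same-numbered arrays did not deviate together (correlations -0.277 to 0.209). Alternatives were another normalization, filter, probe set choice, variance model or set of groups, the replicate block, leaving out each array and the study's threshold (2-fold, p under 0.005).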

Additional observations from a re-analysis of the deposited data

Results flagged for a closer look

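The menin-null difference of Sfrp1 was called as differing between PILECs and mESCs: the interaction (PILECs minus mESCs) was -0.95 (SE 0.187, limma adjusted p = 0.0421), with -0.38 in PILECs and 0.57 in mESCs. For Sfrp2 the interaction was -0.75 (SE 0.130, limma adjusted p = 0.0287), with -1.05 in PILECs and -0.30 in mESCs. Each was noted because a test of the difference between the cell types passed the threshold. Neither was called without moderated variances, with the replicate block or at the study's threshold, and both depended on single arrays, as given above. Sfrp1 (1416594_at) was itself called in neither cell type (limma adjusted p = 0.138 in PILECs and 0.0623 in mESCs).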

How the results depend on the processing

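Of the 9 genes, the count called between Men1-ko and WT mESCs was 2 with a filter at a group mean of 7 (Sp5 and Sfrp1), with every probe set tested (Sfrp1 and Wnt5a) or with an intensity trend (Sfrp1 and Sfrp2), 1 with the most variable probe set per gene (Sfrp1), and 0 to 1 without any single array, against 0 as reported. In PILECs the count was 1 (Sfrp2) without moderated variances and at the study's threshold, against 3. Where only the PILEC arrays entered the fit the count was 4, with 3 lower and 1 higher in Men1-ko PILECs. For differentiation it was 2 (Wnt5a and Sfrp2) at the study's threshold in the Men1-ko line, against 7, and 6 to 8 without any single array in both lines. For the interaction it was 1 (Sfrp2) after a further quantile normalization, 0 without moderated variances, with the replicate block and at the study's threshold, and 0 to 2 without any single array, against 2. With the replicate block the interactions of Sfrp1 and Sfrp2 (limma adjusted p = 0.0606 each) and the difference of Wnt5a in PILECs (adjusted p = 0.0642) lost their calls, while Lgr5 in the WT line gained one (adjusted p = 0.0437). By probe set, the counts with the block were 1 in mESCs, 1 in PILECs and 1 for the interaction, against 4, 2 and 4. They were 0, 1 and 0 without moderated variances, the interaction count was 1 after a further quantile normalization, and the PILEC count was 4 with an intensity trend. Over the 106 other genes the counts without moderated variances were 1 in mESCs, 1 in PILECs and 0 for the interaction, against 9, 8 and 7, and with an intensity trend 11, 13 and 12. The numbers share no known culture or day, so the block is a check only. Wnt5a in PILECs was also not called with the most variable probe set (-0.52, adjusted p = 0.255). Sfrp2 in PILECs was called in all 10 other settings. Znrf3 in PILECs reversed to 0.19 with its most variable probe set (1437646_at), which was not called. Centring each array on its median moved the median of all genes in the differentiation contrasts from -0.07 to -0.19 in the Men1-ko line and turned no called direction among the named genes. The cause of these changes was not tested. Signals under 7 have less room to fall than brighter ones, although Dkk1 was still called lower in PILECs than in mESCs. In all, 9 member probe sets were under 7 in every group, among them those of Lgr5 and Dkk1 and 2 of the 4 Nkd1 probe sets.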
